A study of Mus musculus with 4 samples.

Results

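The phase II conjugation enzyme genes are the 64 protein-coding genes of GENCODE vM21 on chromosomes 1 to 19 whose names start with Gsta, Gstm, Gstp, Gstt, Gstk, Gsto, Gstz, Ugt1, Ugt2, Ugt3 or Sult. They were chosen by name alone, and they are 64 of the 20807 protein-coding genes on these chromosomes. They hold 22 glutathione S-transferase (GST) genes, 21 UDP-glycosyltransferase (UGT) genes and 21 sulfotransferase (SULT) genes. By class these are 4 alpha, 7 mu, 3 pi, 4 theta, 1 kappa, 2 omega and 1 zeta GST, then 9 UGT1, 10 UGT2 and 2 UGT3 genes. Chromatin accessibility was profiled by ATACseq, in which the Tn5 transposase cuts open DNA, and the histone variant H2A.Z by ChIPseq on chromatin cut with micrococcal nuclease. The livers came from male C57Bl/6 mice of 8 to 12 weeks of age on a normal diet, and each of the 2 livers gave both an ATACseq and an H2A.Z library. Both mice carried the floxed alleles Uhrf1 fl/fl. The WT liver had no Cre, and the Uhrf1hepKO liver also carried Alb:Cre, whose albumin promoter drives Cre in hepatocytes and so deletes Uhrf1 there. Each of the 4 libraries was made from whole liver tissue without sorting, and there is 1 library per condition. No p-value can be given, and the 95% Wilson intervals of shares hold only the error of counting, as do the exact Poisson intervals of read numbers, which treat reads as independent molecules. In whole liver, an open site in fewer cells and fewer reads at the site cannot be told apart.

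Phase II enzymes attach a polar group to drugs, hormones, bilirubin and products of lipid peroxidation, so that these can leave the hepatocyte in bile or blood. GSTs transfer glutathione, UGTs a sugar from a UDP sugar, mostly glucuronic acid, and SULTs sulfate from the donor PAPS. Many of these genes lie in clusters that arose by duplication and are among the genes that define a differentiated hepatocyte. ATACseq peaks mark DNA that is open to the transposase, and H2A.Z is a histone variant of nucleosomes beside active and poised start sites.

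Most of these genes had no ATACseq peak near the transcription start site (TSS), while about as many had H2A.Z as in the genome as a whole. In WT, 8 of the 64 genes had an ATACseq peak at most 5 kb from the TSS (12.5%, interval 6.47 to 22.8%) and in Uhrf1hepKO 9 genes did (14.1%, interval 7.58 to 24.6%). Over all protein-coding genes the shares were 31.4% and 29.0%. An H2A.Z peak lay in this window for 34 genes in WT (53.1%, interval 41.1 to 64.8%) and for 33 in Uhrf1hepKO (51.6%, interval 39.6 to 63.4%), against 54.4% and 52.6% of all genes. Without genes whose window recurs elsewhere in the genome by 10% or more, the H2A.Z share was 62.5% in each liver (30 of 48). These shares of all genes are not matched for CpGs, of which the members have few at the TSS, as given below. The ATACseq peaks belonged to 8 GST genes and 1 UGT gene in all. None of the 21 SULT genes had one, and a count of 0 in 21 allows a share of up to 14.3%.

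The 6 ATACseq peaks whose centres lie nearest to a TSS are given as sequence, because they show which promoters of these families were open. They belong to 5 GST genes, 4 of them of the mu class. Only bases of the peak upstream of the annotated start are printed, 5′ to 3′ on the strand of the gene, in GRCm38. For Gstm5 only the last 30 bases are shown, since an exon of 4933431E20Rik also lies there. Capitals mark matches to the motifs searched, on either strand.
Gstm5, Uhrf1hepKO, chr3:107895791-107895820, plus strand: ctgcgcctgcgcaccgcccacTGACCACGC
Gstm7, Uhrf1hepKO, chr3:107931818-107931986, minus strand: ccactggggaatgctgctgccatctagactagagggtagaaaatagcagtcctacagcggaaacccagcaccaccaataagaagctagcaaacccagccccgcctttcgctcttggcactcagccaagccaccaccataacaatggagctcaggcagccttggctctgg
Gstk1, Uhrf1hepKO, chr6:42245820-42245934, plus strand: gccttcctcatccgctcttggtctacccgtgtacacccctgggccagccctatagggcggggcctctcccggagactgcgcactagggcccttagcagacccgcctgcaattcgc
Gstm1, WT, chr3:108017974-108018092, minus strand: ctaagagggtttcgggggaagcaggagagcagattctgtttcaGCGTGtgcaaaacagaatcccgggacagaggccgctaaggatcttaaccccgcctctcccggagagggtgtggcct
Gstm7, WT, chr3:107931818-107931948, minus strand: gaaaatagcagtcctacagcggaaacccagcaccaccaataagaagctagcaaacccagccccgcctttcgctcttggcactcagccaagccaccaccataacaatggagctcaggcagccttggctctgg
Gstm4, WT, chr3:108044895-108044996, minus strand: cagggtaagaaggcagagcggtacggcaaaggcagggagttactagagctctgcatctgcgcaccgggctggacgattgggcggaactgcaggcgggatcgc
The Gstm5 stretch ends in TGACCACGC, which matches the antioxidant response element core TGACNNNGC, and its last 5 bases also match the xenobiotic response element core GCGTG on the other strand. The Gstm1 stretch holds GCGTG on the strand of the gene, and the stretches of Gstm7, Gstk1 and Gstm4 hold none of the motifs searched.

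For contrast, 2 H2A.Z peaks of genes without any ATACseq peak in the window are shown, chosen after the values were seen because they have high folds in the WT list and lie wholly upstream of the start. Sult1b1 encodes a sulfotransferase of thyroid hormones, and Ugt2b35 belongs to the UGT2 cluster beside it on chromosome 5.
Sult1b1, WT H2A.Z, chr5:87538365-87538514, minus strand: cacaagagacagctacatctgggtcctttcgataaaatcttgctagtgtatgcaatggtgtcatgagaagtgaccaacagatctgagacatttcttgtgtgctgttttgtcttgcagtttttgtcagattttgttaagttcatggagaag
Ugt2b35, WT H2A.Z, chr5:87000583-87000707, plus strand: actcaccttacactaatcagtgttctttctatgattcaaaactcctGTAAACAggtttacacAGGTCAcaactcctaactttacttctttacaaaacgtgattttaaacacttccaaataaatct
Each of these stretches holds 1 CpG, in 150 bases at Sult1b1 and in 125 bases at Ugt2b35, while the open stretches hold 7 in 115 bases at Gstk1, 8 in 102 at Gstm4, 6 in 119 at Gstm1, 4 in 30 at Gstm5, and 3 in the 169 and 131 bases of Gstm7. The H2A.Z stretches do not reach the start, while the open ones end just before it. The 29 genes with H2A.Z and no ATACseq peak have 1 to 56 CpGs within 500 bp of the TSS, so these 2 do not stand for them. The Ugt2b35 stretch holds GTAAACA, the reverse complement of the FOXA site TGTTTAC, and the nuclear receptor core AGGTCA.

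The lists set the limits of what can be seen. On chromosomes 1 to 19 they held 10439 ATACseq peaks in WT and 10636 in Uhrf1hepKO, and 50665 and 46400 H2A.Z peaks. The most frequent fold of an ATACseq list is that of 8 reads where the background is 1.56 in WT, and of 9 reads where it is 2 in Uhrf1hepKO. These folds, 3.52 and 3.33, lie below the list medians of 4.31 and 4.05 and were held by 249 peaks in WT and 289 in Uhrf1hepKO. They show how few reads a called peak can hold and not what is typical of a list. At so few reads weak sites can be missed, and whether depth left a given gene without a peak was not tested. Defining markers of liver cells were mostly without peaks within 5 kb. Of the 5 hepatocyte markers, Alb had an ATACseq peak in Uhrf1hepKO and Ttr an H2A.Z peak in WT, and the other 3 had none. The 3 Kupffer cell, 3 endothelial and 3 stellate markers had none in this window in any list, and Sox9 was the only cholangiocyte marker with peaks. In their gene bodies, the 3 endothelial markers, Csf1r and Reln had H2A.Z peaks in both livers, and the other Kupffer and stellate markers had none. Peaks near these starts therefore do not check the tissue. Uhrf1 itself had 1 peak near its TSS in each of the 4 lists, so the lists do not check its deletion.

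**Figure D1:**
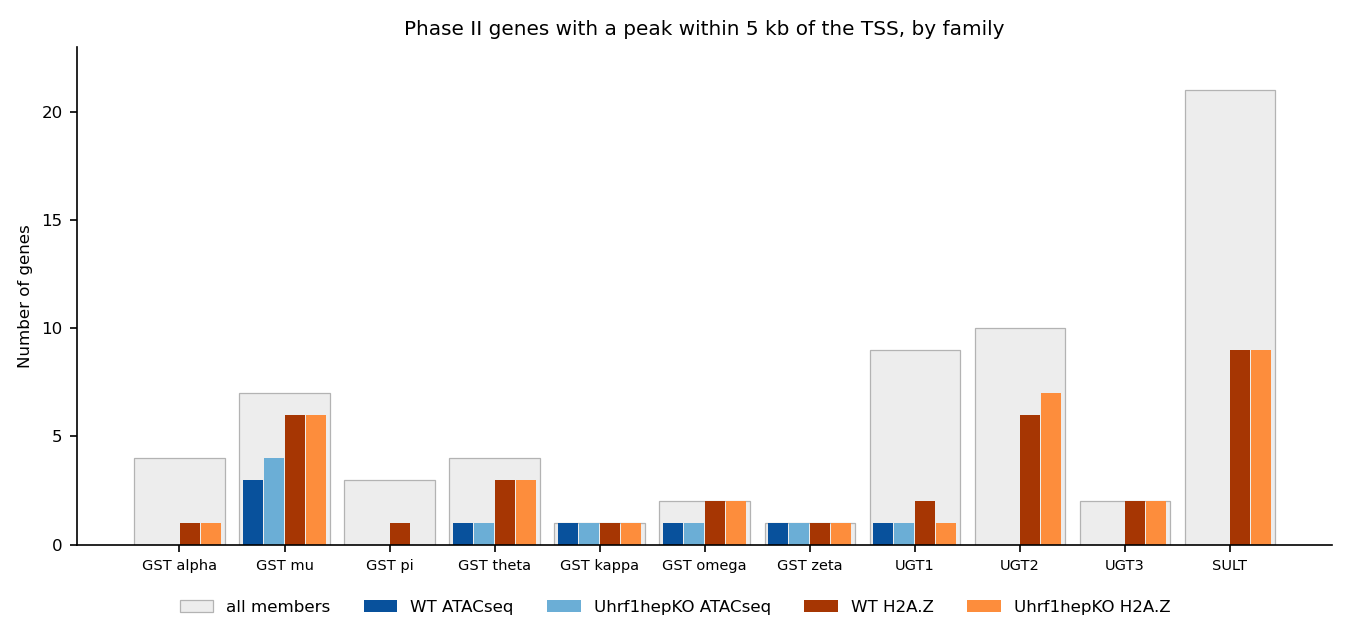
Number of genes (vertical axis) with a peak at most 5 kb from the TSS in each of the 4 lists, by family (horizontal axis), with 1 library per bar and no error bar. Grey boxes give all members of the family. The blue ATACseq bars stand only in 5 GST classes and in UGT1, and all 21 SULT genes lack them, while brown or orange H2A.Z bars are present in every family.

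The mu class of GSTs, a cluster of 7 genes on chromosome 3 that conjugate epoxides and quinones, held the most open promoters. Gstm1, a major hepatic form, had a fold of 3.85 in the WT ATACseq list and of 3.43 in the Uhrf1hepKO list, with centres 18 and 35 bp upstream of the TSS. Gstm4 had folds of 4.38 and 3.69, and Gstm7 had folds of 4.70 and 5.14. All 3 peaks covered the TSS in both livers. A fold here is the pileup of reads over the local background within 1 library. It is not scaled between libraries, and values from 2 lists are given side by side without comparing them. Gstm5 was the only one of the 64 genes with an ATACseq peak in its TSS window in 1 liver, at a fold of 4 in Uhrf1hepKO with a centre 6 bp upstream of the TSS, while the nearest WT peak lay 35908 bp away. In terms of all genes, 5.07% had an ATACseq peak in the window in Uhrf1hepKO only, 7.44% in WT only and 24.0% in both, against 1, 0 and 8 of the 64 genes. A count of 0 in 64 allows a share of up to 4.69%. The split depends on the threshold of the peak calls, since with a q-value of 0.01 or lower 2 genes had a peak in WT only, 2 in Uhrf1hepKO only and 5 in both.

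H2A.Z at Gstm5 was found in both livers. Its upstream peak had 34 reads at the summit in WT (exact Poisson interval 23.5 to 47.5) and 42 in Uhrf1hepKO (30.3 to 56.8), and the downstream peak had 27 (17.8 to 39.3) and 34 (23.5 to 47.5). The intervals overlap at both sites. These peaks stop on either side of the start, at 89 bp from it in WT and 94 bp in Uhrf1hepKO, so the gap where the Uhrf1hepKO ATACseq peak lies was also present in the WT H2A.Z list. Of the other mu genes, Gstm3 had H2A.Z only in its body. The peak at 4291 bp downstream of the TSS had 16 reads in WT (9.15 to 26.0), and its partner at 4301 bp had 30 in Uhrf1hepKO (20.2 to 42.8). A further WT peak at 4708 bp had 22 reads and no partner in Uhrf1hepKO. Gstm6 had 1 H2A.Z peak in each list that did not overlap, at 103 bp from the TSS in WT and at 4044 bp in Uhrf1hepKO. Gstm2 had no peak of any kind, and 38.9% of the 75-base words in its window recur elsewhere in the genome, where the placement of a read is ambiguous.

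In the other GST classes, 4 genes had an ATACseq peak near the TSS, each in both livers. Gstk1, the mitochondrial and peroxisomal kappa enzyme, had folds of 4.08 in WT and 5.07 in Uhrf1hepKO. Gstz1, the zeta enzyme that isomerizes maleylacetoacetate in tyrosine breakdown, had folds of 3.91 and 3.92, over peaks of 560 and 617 bp. Gsto2, an omega enzyme that can reduce dehydroascorbate, had folds of 4.51 and 4.66, and Gstt2 of the theta class had 4.91 and 4.53. At Gstt2 the WT peak ended 8 bp before the TSS and the Uhrf1hepKO peak covered it. Gstk1 and Gstz1 also held H2A.Z summits on both sides of the start in both livers. At Gsto2 the WT summits lay 23 and 434 bp downstream, the first in a peak over the TSS. In Uhrf1hepKO they lay 323 bp upstream and 425 and 728 bp downstream. The highest H2A.Z folds of these classes were 9.75 at Gstz1 in the WT list, 197 bp upstream, and 8.83 at Gstk1 in the Uhrf1hepKO list, 225 bp upstream. Gsto1 had only H2A.Z, in 1 wide peak of each list with a fold of 6.82 in WT and 7.20 in Uhrf1hepKO. Gstt1 and Gstt3 had H2A.Z in both livers and no ATACseq peak in the window, with highest folds of 3.66 and 5.61 in WT and of 4.65 and 5.11 in Uhrf1hepKO, and Gstt4 had no peak. Some of the H2A.Z peaks counted for Gstt3 and Gstz1 lie nearer to the TSS of another coding gene, Gm20441 and Pomt2.

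The alpha and pi classes, which hold abundant liver enzymes, had few peaks near their starts. In the alpha class, Gsta3 had an H2A.Z peak in WT only, 2293 bp upstream with 11 reads (5.49 to 19.7), and Gsta2 had one in Uhrf1hepKO only, 326 bp downstream with 16 reads (9.15 to 26.0). Gsta4, which conjugates hydroxynonenal from lipid peroxidation, had 2 H2A.Z peaks in its body in each list, 9029 to 9375 bp from the TSS, and Gsta1 had none. Recurring 75-base words made up 48.0% of the window of Gsta1 and 27.9% of that of Gsta4, but 2.92% at Gsta2 and 0.630% at Gsta3. In the pi class, Gstp2 had an H2A.Z peak over its TSS in WT only, with 20 reads, and Gstp1 and Gstp3 had no peak. The whole window of each of the 3 Gstp genes is also present on a fix patch scaffold of chromosome 19 in the assembly, and no list has a peak in those windows on the patch. How reads that fit both copies were placed is not given in the sources used here. The absence of peaks at Gstp1 and Gstp3, and at Gstp2 in Uhrf1hepKO, thus cannot be told apart from a loss of ambiguous reads.

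**Figure D2:**
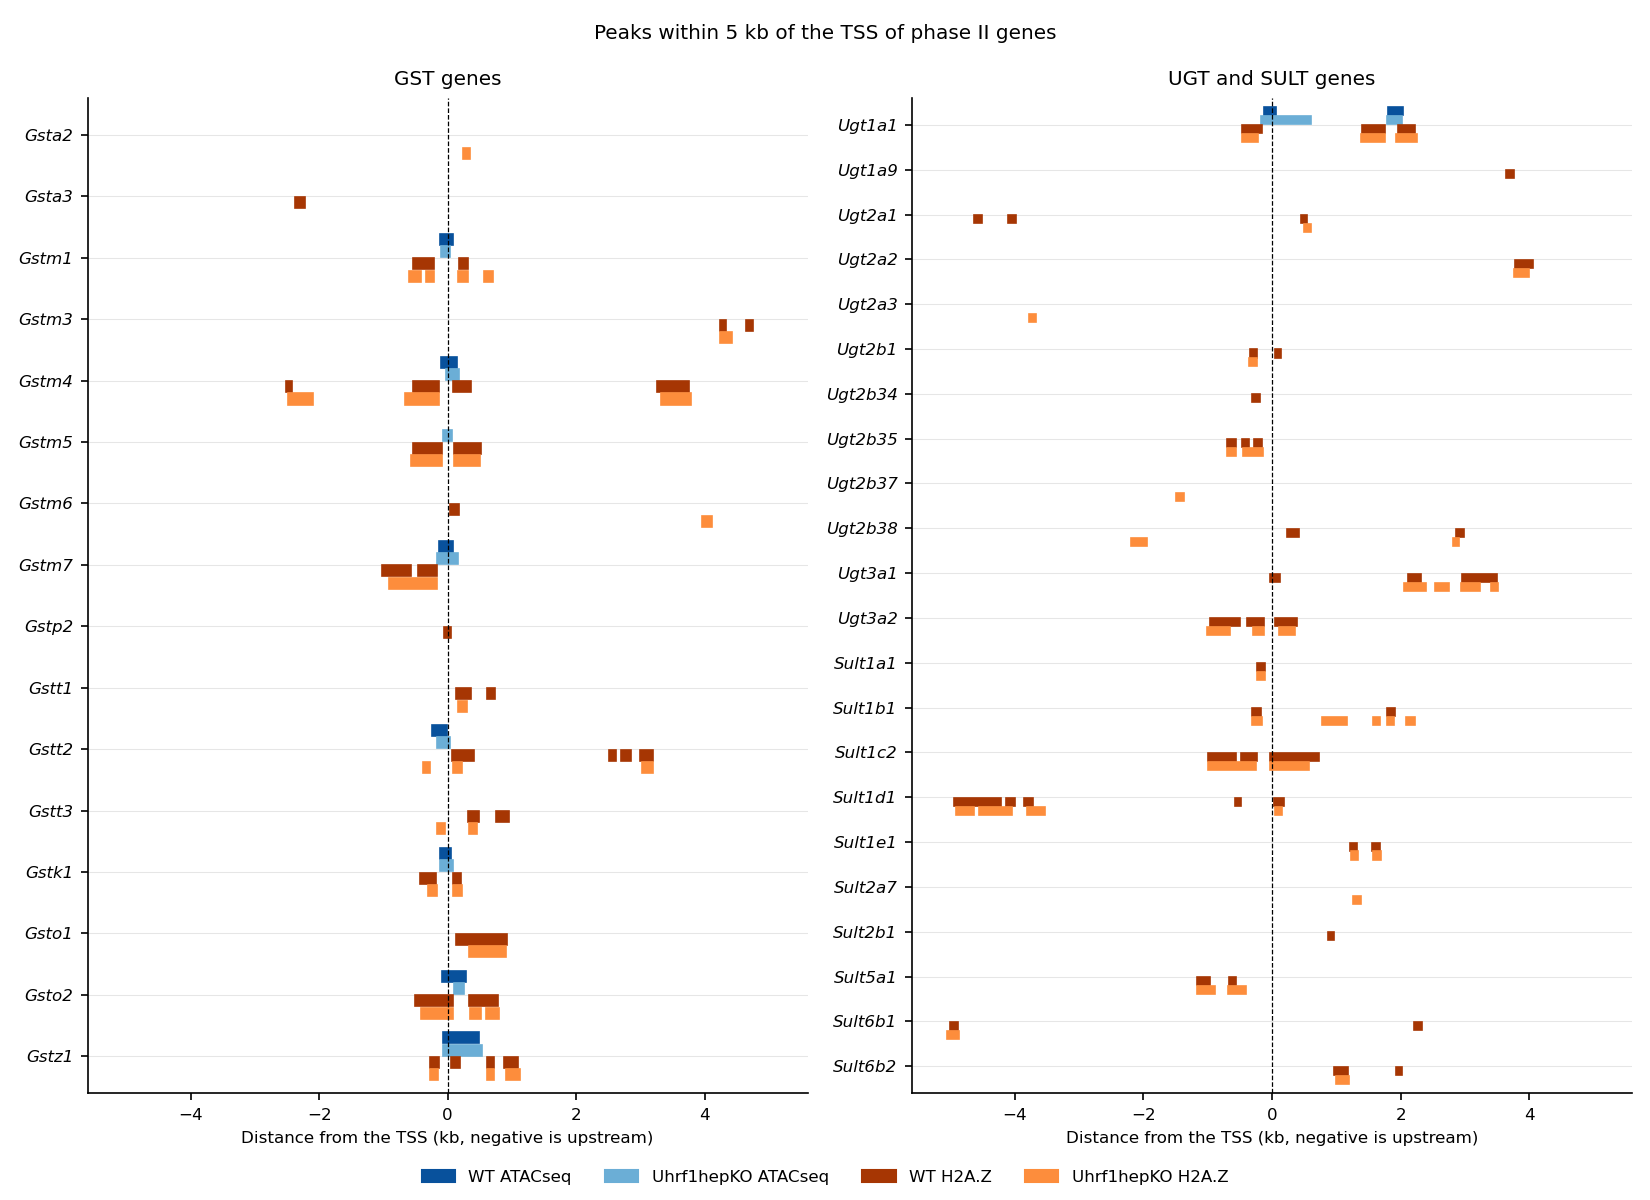
Peaks within 5 kb of the TSS for the 38 genes that have any, as bars from peak start to peak end along the distance from the TSS in kb (horizontal axis, negative is upstream), with 1 row per gene and a colour per list. Blue ATACseq bars lie at or close to the dashed TSS line, apart from the second one of Ugt1a1, and orange H2A.Z bars lie mostly beside it.

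The 9 UGT1 genes are first exons that share their last exons in 1 locus on chromosome 1, and only the last of them had an ATACseq peak at its start. Ugt1a1 encodes the enzyme that conjugates bilirubin. Its TSS had an ATACseq peak with a fold of 3.79 in WT, 188 bp wide, and of 3.29 in Uhrf1hepKO, 776 bp wide. A second peak lay 1924 bp downstream in WT with a fold of 2.95 and 1905 bp downstream in Uhrf1hepKO with a fold of 2.48. These folds are low for the lists, and 2.48 stood at the 0.442 percentile of the Uhrf1hepKO list. The H2A.Z peaks downstream of the Ugt1a1 TSS had the most reads of all members. The peak 2041 bp downstream had 49 reads in WT (36.3 to 64.8), and its partner had 56 reads in Uhrf1hepKO (42.3 to 72.7). Because the local background there was 13.6 and 14.6 reads, against medians of 3.10 and 3.30, the H2A.Z folds were 3.42 and 3.67, at the 6.29 and 6.34 percentile of their lists. Ugt1a1 thus stood at the top of the members by reads and near the bottom by fold.

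Because the UGT1 genes are nested, all 9 contain the same pair of ATACseq peaks at Ugt1a1 in each liver. Of the other 8 starts, only that of Ugt1a9 had a peak within 5 kb, an H2A.Z peak in WT 3713 bp downstream with 25 reads. Recurring 75-base words made up 10% or more of the window at 4 of the 9 genes. Within 500 bp of the TSS they made up 41.2% at Ugt1a6a and at Ugt1a6b, but 0% at Ugt1a1, Ugt1a2, Ugt1a5 and Ugt1a8. A further ATACseq peak in Uhrf1hepKO only lay at chr1:88111994-88112584, in an intron of the 5 longest genes, with a fold of 3.77. All of its 591 bases are repeat-masked in the assembly.

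**Figure D3:**
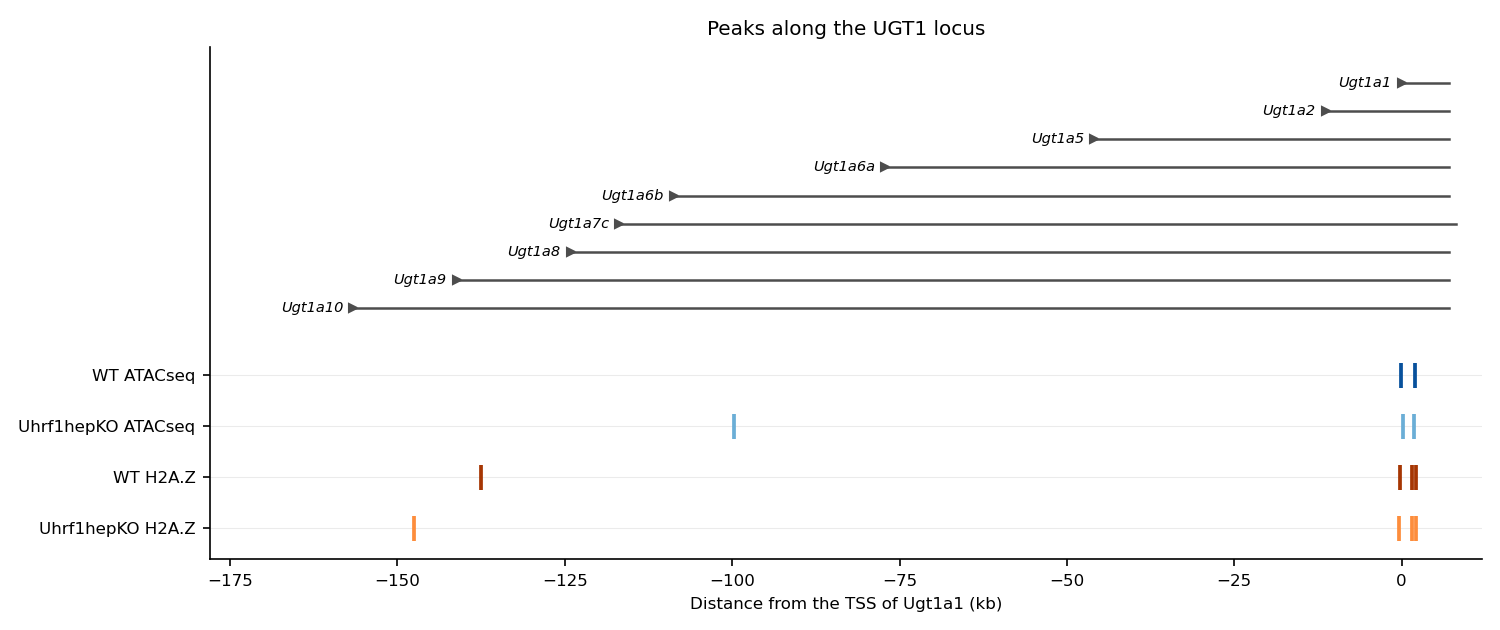
The UGT1 locus, with the position relative to the TSS of Ugt1a1 in kb on the horizontal axis, the 9 nested genes as lines that start at an arrowhead, and the middle of each peak as a vertical tick in 1 row per list. In all 4 lists the ticks gather at Ugt1a1, and each list but WT ATACseq has 1 more tick far upstream that no other list shares.

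The UGT2 genes, which conjugate steroids and bile acids and lie in 1 cluster on chromosome 5, had H2A.Z without ATACseq peaks. H2A.Z lay in the window of 6 of 10 genes in WT and 7 in Uhrf1hepKO, where all genes gave 54.4% and 52.6%. The count of 0 for ATACseq allows a share of up to 30.0%, and all 10 have fewer than 20 CpGs at the TSS, a class in which 7.66% of all genes in WT and 7.75% in Uhrf1hepKO had an ATACseq peak. For H2A.Z the shares of that class were 21.5% in WT and 20.3% in Uhrf1hepKO. The 10 genes are 1 cluster of related sequence, and nothing is read from the difference. Ugt2b35 had the highest folds, 8.53 in WT and 8.95 in Uhrf1hepKO, just upstream of its start, with 34 reads (23.5 to 47.5) and 41 reads (29.4 to 55.6) at the summits. Ugt2b1 had 21 reads in WT (13.0 to 32.1) and 33 in Uhrf1hepKO (22.7 to 46.3) at peaks 300 and 296 bp upstream. Ugt2b34 had a peak in WT only, 238 bp upstream with 22 reads. Ugt2b37 and Ugt2a3 had one in Uhrf1hepKO only, 1423 and 3705 bp upstream with 27 and 17 reads. Ugt2b36 and Ugt2b5 had no peak. Both UGT3 genes, whose enzymes can use other UDP sugars than glucuronic acid, had H2A.Z in both livers and no ATACseq peak in the window. Ugt3a1 reached a fold of 6.82 in WT and 9.76 in Uhrf1hepKO near 3 kb downstream of the TSS, and Ugt3a2 reached 7.31 and 8.13 upstream of it.

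The SULT genes beside UGT2 on chromosome 5 held H2A.Z in both livers. Sult1b1 had 39 reads 248 bp upstream in WT (27.7 to 53.3) and 34 at the partner peak in Uhrf1hepKO (23.5 to 47.5), with folds of 9.75 and 8.13. Sult1d1 had 5 H2A.Z peaks in its window in WT and 4 in Uhrf1hepKO, and Sult1e1, the estrogen sulfotransferase, had 2 in each list, all inside an intron. On chromosome 17, Sult1c2 had 37 reads at 224 bp downstream in WT and 37 at 226 bp in Uhrf1hepKO, with folds of 9.26 and 8.83, and its neighbour Sult1c1 had no peak in the window. Recurring 75-base words made up 37.7% of the window of Sult1b1 and 21.2% of that of Sult1c2. Ambiguous placement of reads thus also concerns genes with peaks. Sult1a1, the phenol sulfotransferase, had 21 reads 163 bp upstream in WT (13.0 to 32.1) and 23 reads 172 bp upstream in Uhrf1hepKO (14.6 to 34.5).

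The 8 Sult2a genes on chromosome 7, whose enzymes sulfate hydroxysteroids and bile acids, were almost bare. Sult2a7 had an H2A.Z peak in Uhrf1hepKO only, 1305 bp downstream with 23 reads (14.6 to 34.5). Sult2a1 had an intronic ATACseq peak in WT only, 23252 bp from its TSS. The other 6, Sult2a2, Sult2a3, Sult2a4, Sult2a5, Sult2a6 and Sult2a8, had no peak of any list, as was the case for Sult1c1, Sult3a1 and Sult4a1. Recurring 75-base words made up 28.3% of the window of Sult2a1, 48.0% of that of Sult2a2 and 33.7% of that of Sult2a4, but 2.91% at Sult2a3 and 5.64% at Sult2a8, which also had none. Sult4a1, known as a form of the brain, has 81 CpGs within 500 bp of its TSS, the most of any member. Outside the clusters, Sult2b1 had an H2A.Z peak near its TSS in WT only, at 916 bp downstream with 18 reads, and it lies nearer to the TSS of Lmtk3.

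Across the families, H2A.Z was found in both livers within 5 kb for 29 genes (45.3%, interval 33.7 to 57.4%), in WT only for 5 (7.81%, interval 3.38 to 17.0%) and in Uhrf1hepKO only for 4 (6.25%, interval 2.46 to 15.0%). The shares of all genes were 50.4%, 3.99% and 2.17%. The 5 of WT were Gsta3, Gstp2, Ugt1a9, Ugt2b34 and Sult2b1, and the 4 of Uhrf1hepKO were Gsta2, Ugt2b37, Ugt2a3 and Sult2a7. The limit on the placement of reads given above holds for Gstp2. With a window of 1 kb the count in Uhrf1hepKO only was 1, and with 500 bp it was 2. Each of these 9 genes had 1 peak in the window, with 11 to 27 reads at its summit. Over all member peaks in the windows, the summits had 11 to 49 reads in WT (median 21.5) and 13 to 56 in Uhrf1hepKO (median 23). H2A.Z without an ATACseq peak in the window was found at 26 genes in WT (40.6%, interval 29.5 to 52.9%) and 24 in Uhrf1hepKO (37.5%, interval 26.7 to 49.7%), where all genes gave 25.4% and 26.4%. No peak of any list, in window or body, was found for 16 genes (25.0%, interval 16.0 to 36.8%) against 31.4% of all genes.

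Read numbers at H2A.Z peaks found in both livers are raw values of 1 library each, and they are set side by side as a description. In the windows, 42 pairs of peaks overlapped one to one, and sites where a peak overlapped several in the other list are not among them. Of the 42 pairs, 28 had more reads at the summit in Uhrf1hepKO, 10 had fewer and 4 had as many. The median difference was 2 reads, and it ranged from -10 to 14. For 14468 such pairs over all genes, 59.8% had more reads in Uhrf1hepKO and the median difference was also 2 reads. By family, Uhrf1hepKO was higher in 11 of 18 GST pairs, 10 of 12 UGT pairs and 7 of 12 SULT pairs. The extremes were Gstz1 upstream, with 39 reads in WT (27.7 to 53.3) and 29 in Uhrf1hepKO (19.4 to 41.6), and Gstk1 upstream and Gstm3, each with 14 more in Uhrf1hepKO. The Poisson intervals overlapped in all 42 pairs. They are wide at these read numbers and overlap even at Gstm3, with 16 and 30 reads, so their overlap does not show that the livers are alike.

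**Figure D4:**
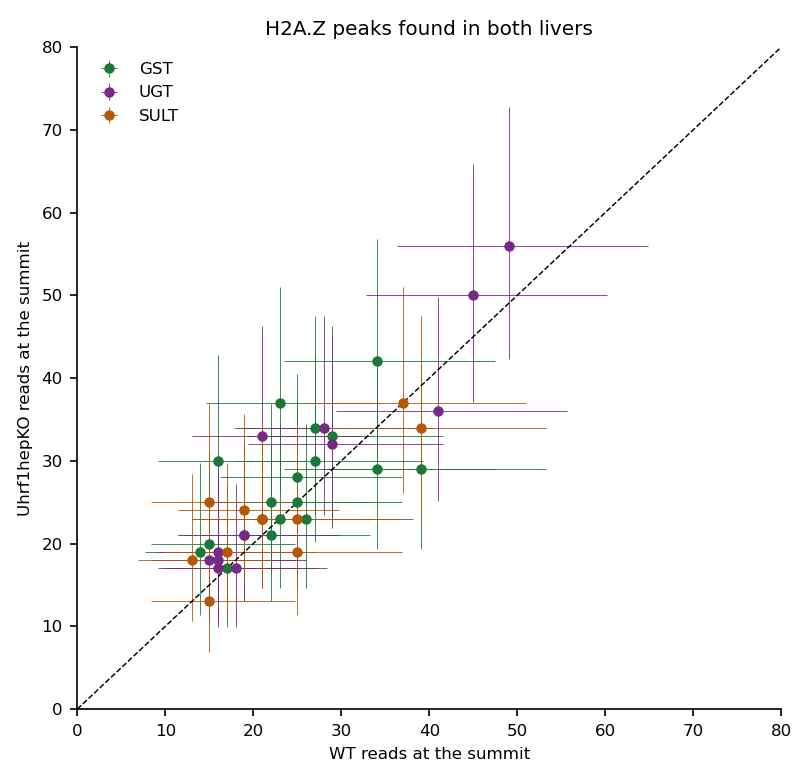
H2A.Z reads at the summit in WT (horizontal axis) and Uhrf1hepKO (vertical axis) for the 42 pairs of overlapping peaks within 5 kb of a TSS, coloured by family, with exact Poisson 95% intervals as bars and the line of equal reads dashed. The points lie along the line and every pair of intervals overlaps, with the Ugt1a1 peaks at the upper right at up to 49 reads in WT and 56 in Uhrf1hepKO.

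As distinct peaks, the windows held 9 ATACseq peaks in WT, all 9 of which overlap one in Uhrf1hepKO, and 10 in Uhrf1hepKO, of which 9 overlap. For all genes 72.9% of WT and 78.0% of Uhrf1hepKO peaks in the windows did so. Of the H2A.Z peaks, 53 of 74 in WT (71.6%) and 53 of 66 in Uhrf1hepKO (80.3%) overlapped the other list, near the 78.3% and 84.4% of all genes. H2A.Z summits lay mostly to the sides of the open site. Of the 9 WT ATACseq peaks, 6 had an H2A.Z summit within 1 kb on both sides, 2 upstream only and 1 downstream only, and of the 10 in Uhrf1hepKO, 7 had one on both sides and 3 upstream only. H2A.Z and ATACseq peaks overlapped at 4 of 9 sites in WT and 1 of 10 in Uhrf1hepKO. Of the H2A.Z summits, 5 of 74 in WT and 1 of 66 in Uhrf1hepKO lay within 100 bp of the TSS. These counts of sides, overlaps and summits are not given for all genes, so the layout is not read as a trait of the members.

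Gene bodies gave another picture. An ATACseq peak lay in the body of 17 of 64 genes in WT (26.6%, interval 17.3 to 38.5%) and 20 in Uhrf1hepKO (31.2%, interval 21.2 to 43.4%), where all genes gave 31.3% and 29.6%. The UGT1 genes account for 9 of these in each liver through shared peaks. H2A.Z lay in the body of 36 genes in each liver (56.2%, interval 44.1 to 67.7%), against 47.8% and 45.0% of all genes. Here too the UGT1 genes account for 9 in each liver, all of which contain the same peaks at Ugt1a1. The intervals of body shares count these nested genes as independent, so no excess over all genes is read from them. Body peaks of ATACseq beyond 5 kb of any coding TSS were found in 1 liver only. In WT there were 2, at Gsta2, 7371 bp from its TSS, and at Sult2a1. In Uhrf1hepKO there were 6, in Gstt1, Gsto2, Gstz1, the UGT1 locus, Ugt3a1 and Sult3a2. None of these 8 overlapped a peak of the other liver, and of all such peaks in gene bodies 45.0% in WT and 41.1% in Uhrf1hepKO did. The peaks of Gsto2 (fold 5.07) and Gsta2 (fold 4.46) had the highest folds of their lists among the 8, and the Sult3a2 peak, like that of the UGT1 locus, is wholly repeat-masked. The Ugt3a1 peak, 29591 bp from the TSS, lies inside an H2A.Z peak found in both livers, with 34 reads in WT (23.5 to 47.5) and 38 in Uhrf1hepKO (26.9 to 52.2). Of the H2A.Z peaks beyond 5 kb of any coding TSS, 9 of 13 in WT and 9 of 12 in Uhrf1hepKO overlapped, with 64.7% and 70.9% for all genes.

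The starts of these genes are poor in CpGs, and those with an ATACseq peak had more CpGs than the others by median. Within 500 bp of the TSS the median was 10.5 CpGs over the 64 genes and 43 over all protein-coding genes, and 49 members had fewer than 20 (76.6%, against 34.0% of all). The 9 genes with an ATACseq peak had a median of 35 CpGs, the 29 with H2A.Z and no ATACseq peak a median of 10, and the 26 without a peak in the window a median of 6.5. The split at 20 CpGs was chosen after the values were seen. Below it, 2 of 49 genes had an ATACseq peak in each liver, Gstm7 and Ugt1a1 (4.08%, interval 1.13 to 13.7%), against 7.66% of all such genes in WT and 7.75% in Uhrf1hepKO. H2A.Z was present at 22 of the 49 in each liver (44.9%, interval 31.9 to 58.7%), where 21.5% of all genes below the split had it in WT and 20.3% in Uhrf1hepKO. With 20 or more CpGs, ATACseq peaks were found at 6 of 15 genes in WT and 7 in Uhrf1hepKO (all genes 43.6% and 40.0%), and H2A.Z at 12 and 11 (71.3% and 69.2%). Members of a cluster are related in sequence, and these intervals treat them as independent, so nothing is read from the difference to all genes.

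**Figure D5:**
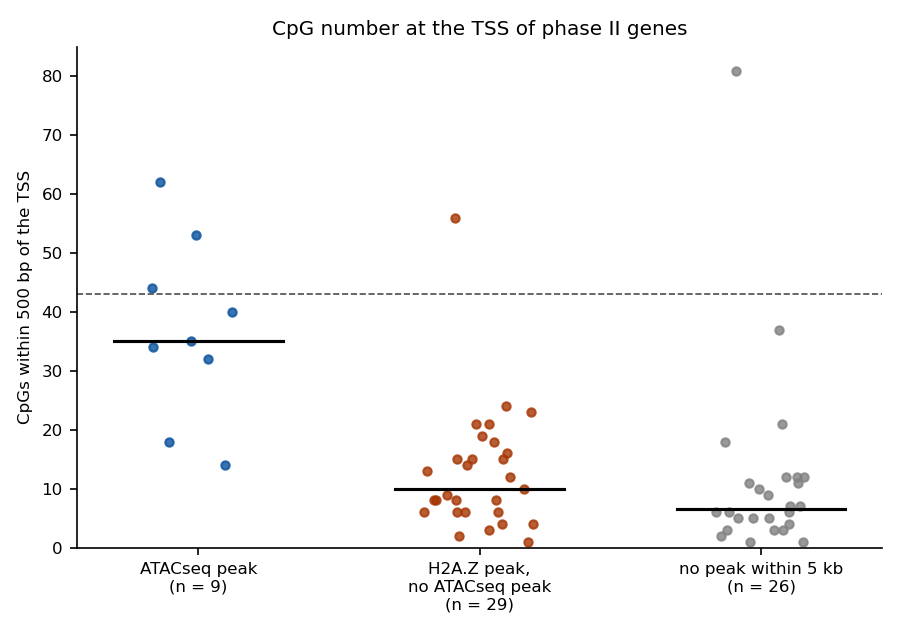
CpGs counted up to 500 bp from the TSS (vertical axis) for members with an ATACseq peak within 5 kb in either liver, with H2A.Z and no ATACseq peak, and with no peak, as 1 point per gene with the median as a bar. The dashed line is the median of 43 over all protein-coding genes. The ATACseq points have a median of 35 and the other groups medians of 10 and 6.5, and the high point without a peak is Sult4a1 at 81.

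RefSeq promoters of GRCm38, from 250 bases before to 50 after the start, were matched for 56 of the 64 genes by symbol, 8 of them with an ATACseq peak. Shares marked all are those of the 27025 genes with such promoters, another set than the protein-coding genes used elsewhere. The FOXA site TGTTTAC was found on either strand in 5 (8.93%, all 4.05%) and the TATA box TATAAA in 14 (25.0%, all 15.7%). The nuclear receptor core AGGTCA was found in 12 (21.4%, all 18.1%). The xenobiotic response element core GCGTG was found in 11 (19.6%, all 35.2%) and the antioxidant response element core TGACNNNGC in 3 (5.36%, all 14.0%), namely Gsta3, Gstm5 and Gstm7, of which Gstm5 and Gstm7 have an ATACseq peak. GCGTG itself holds a CpG and the starts of the members are poor in CpGs, so nothing is read from its lower share. A match is a description of letters and not of binding.

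Genes that supply and control these reactions were looked at in the same way, and the shares of all genes stay 31.4% and 29.0% for ATACseq and 54.4% and 52.6% for H2A.Z. All 8 genes of cofactor supply have 20 or more CpGs at the TSS, where the shares of all genes are 43.6% and 40.0% for ATACseq and 71.3% and 69.2% for H2A.Z. Of these 8, all had H2A.Z within 5 kb in each liver, and 5 had an ATACseq peak in WT and 3 in Uhrf1hepKO. Papss1, which makes the sulfate donor, had ATACseq folds of 8.49 and 6.71, and Gclm, the modifier subunit of glutathione synthesis, had 4.47 and 6.11. Ugdh, which makes UDP-glucuronic acid, had one of 5.52 in WT only, as did Gclc (4.02) and Gss (5.68) of glutathione synthesis, and Ugp2 had one of 4.44 in Uhrf1hepKO only. Of 11 other enzymes, which include the epoxide hydrolases Ephx1 and Ephx2 beside conjugating ones, 2 had an ATACseq peak in WT and 4 in Uhrf1hepKO. H2A.Z was found at 8 in WT, Ephx1 among them, and at 6 in Uhrf1hepKO, where Ephx1 had none in the window. Nat2, an arylamine acetyltransferase, and Mgst1, a microsomal GST, had an ATACseq peak in Uhrf1hepKO only, with folds of 5.56 and 3.69. Of 6 regulators, Nfe2l2, which encodes NRF2, was the only one with an ATACseq peak in the window, in both livers with folds of 3.85 and 4.10. H2A.Z was present at Nfe2l2, Keap1, Ahr and Nr1i2 in both livers, and Nr1i3 and Hnf4a had no peak in the window. Hnf4a had 1 ATACseq peak in its body in each liver.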

How the data were processed

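Reads were mapped by the authors with BWA-MEM (GRCm38.p4), PICARD served to clean them, and MACS2 called peaks library by library, in broad mode for ATACseq. The submitters' processing notes also name Trimmomatic and FastQC 0.11.5. The MACS2 version, a control library and the treatment of reads with several placements are not given in the sources used here, and the methods give single-end ATACseq reads beside a paired-end calling option. Each deposited peak has a display score, a fold (ratio of pileup to local background, a mean over the region for ATACseq and the summit value for H2A.Z) and −log10 values of p and q (its p-value and q-value), all made by the authors' caller within 1 library. The other deposited value is the distance of the H2A.Z summit from the peak start.

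From these, peaks on chromosomes 1 to 19 were used, 1-based. A window ran 5 kb up- and downstream from the gene start in GENCODE vM21, a body ran from gene start to end, and overlap needed 1 bp. Distances run to the centre of an ATACseq peak and to the summit of an H2A.Z peak. H2A.Z reads at the summit were solved from the fold, (reads + 1) / (background + 1), and the Poisson p-value, with exact Poisson intervals. Within 0.001 of the deposited −log10 p-value, this recovered all 87 WT and 78 Uhrf1hepKO member peaks, and all of 2534 and 2320 peaks sampled over the lists. Intervals of shares are Wilson 95% intervals, limits for a count of 0 are 3 counts, and both cover counting error only. The highest q-value was 0.0997 and 0.0993 in the ATACseq lists and 0.0500 and 0.0489 in the H2A.Z lists. CpGs, repeated 75-base words and repeat-masked (lower-case) bases were counted in the RefSeq FASTA of GRCm38.p6, which has the same coordinates on these chromosomes.

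The members and lists were chosen with earlier results of these data known. Named genes are those whose TSS window has an ATACseq peak, the 2 of each family with the highest H2A.Z fold there and those with H2A.Z in 1 liver. Genes with no peak are named without values. Other names were chosen after their values were seen. Of the lists, 1 regulator and 1 motif are not reported here. Windows, TSSs, thresholds and peak numbers were varied 1 at a time. The steps were tested on simulated data. The software was scipy 1.17.1, numpy 2.4.6, matplotlib 3.10.9 and pandas 2.3.3 under Python 3.11.15.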

Additional observations from a re-analysis of the deposited data

How the results depend on the processing

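No paired analysis was possible because the labels give no replicate numbers and each group has 1 library. Of 108 alternative values for 18 results under 10 alternatives, 84 stayed within the counting interval of a share or within 1.5 times a count. The other 24 were as follows. With only the upper part of each list, from its median fold upward, the share of genes with an ATACseq peak was 6.25% in each liver, near the TSS and in the body, with 5 distinct peaks in each list. The H2A.Z shares then were 39.1% in WT and 37.5% in Uhrf1hepKO near the TSS and 31.2% and 29.7% in the body, with 46 and 43 distinct peaks, and ATACseq peaks were shared at 3 genes and in WT only at 1. With a q-value of 0.01 or lower, the ATACseq split was 5 genes in both livers, 2 in WT only and 2 in Uhrf1hepKO only, and 9 distinct peaks remained in Uhrf1hepKO. H2A.Z near the TSS was 35.9% in Uhrf1hepKO with a 1 kb window, and 39.1% in WT and 34.4% in Uhrf1hepKO with 500 bp, and the count of genes with H2A.Z in Uhrf1hepKO only was 1 and 2. With the TSS of any annotated transcript, 1 gene had an ATACseq peak in WT only. Fewer peaks or narrower windows leave fewer genes with a peak by construction, but counts of genes in 1 liver can rise, and why they did was not tested. The number of peaks per list, repeated windows and overlapping windows moved no value beyond these bounds, which are wide. For the 48 genes with less than 10% of repeated words in the window, H2A.Z near the TSS was 62.5% in each liver. Their ATACseq shares were 16.7% in WT and 18.8% in Uhrf1hepKO. The shares of all genes were not recounted in this way. The most frequent ATACseq fold is that of 8 reads in WT and 9 in Uhrf1hepKO, and sites below the calling threshold are missing from the lists.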
